A study of Mus musculus with 4 samples.

Results

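The MHC class II genes were followed through the immune cells of mouse skin and of skin tumors. The 10 genes were taken from the 31053 genes of the count matrices because of their known roles, and all 10 were found. They encode alpha and beta chains of class II (H2-Aa, H2-Ab1 and H2-Eb1), the invariant chain (Cd74), the peptide editor H2-DM (H2-DMa, H2-DMb1 and H2-DMb2), its inhibitor H2-O (H2-Oa and H2-Ob) and the transactivator of the whole set (Ciita). No gene of this set was used to sort or to name a cell, so their levels in each cell type are free of that choice.

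MHC class II molecules are heterodimers of an alpha and a beta chain that carry peptides of ingested proteins to the surface of antigen-presenting cells (APCs), where CD4 T cells read them. In the endoplasmic reticulum the invariant chain fills the groove, and it is later trimmed by cathepsins to a remnant that H2-DM exchanges for peptide, a step that H2-O restrains. Transcription depends on CIITA, which binds no DNA itself and joins the factors bound to the W, X and Y boxes in front of class II genes, and in skin the genes are best known in Langerhans cells, dermal dendritic cells and macrophages.

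CD45+ cells were sorted from 2 control skins of uninoculated C57 mice and from 2 skin tumors, and 1 droplet library of RNA 3' ends was made from each sample. Cells of line 2323 were injected subcutaneously into the flank and the tumors were taken 2 weeks later, and all mice were labelled C57/BL6 in genotype. Line 2323 was derived from a tumor graft of the ktiKPP model (K14rtTA/tetOCre), in which a keratin 14 promoter drives the inducible Cre, so the tumor samples represent a single transplanted line and not tumors that arose in their own skin. The mice were females and males of 8 to 10 weeks at injection, and the sex of each library is not given in the labels. Ddx3y was at 2.376 and 2.068 UMIs per 10,000 in control skins and at 0.958 and 1.273 in skin tumors. Xist was at 0.0005276 and 0.0002409 against 0.004918 and 0.006175. Both genes thus differed in level between the groups without overlap, but all 4 libraries held Ddx3y and almost no Xist. The replicates are known by number only, and p-values therefore measure the spread between these samples.

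The libraries held 3499 and 3862 cells of control skin and 5176 and 2258 cells of skin tumor, with 34893543 to 73904272 unique molecular identifiers (UMIs, each standing for 1 captured RNA molecule), and any pair of libraries shared 1 to 7 cell barcodes. After filters and removal of 453 probable doublets, 12395 cells remained, with a median of 10270 to 13020 UMIs. Cells were placed in 18 gates, each requiring several markers of 1 cell type, and 8476 cells (68.4%) received a gate. A myeloid cell that met several myeloid lists was placed in the gate with the largest share of its markers found. Gates of dendritic cells, macrophages and monocyte-like cells can therefore hold cells that met another of these lists. Cells that met lists of several lineages, or that tied between myeloid lists, numbered 1219 and were set apart as mixed. Levels are given as UMIs of a gene per 10,000 UMIs of the gate. Gates were tested where each library held at least 10 cells, which left 11. Langerhans cells (LC) numbered 454 and 386 in control skins against 1 and 6 in skin tumors, and mature dendritic cells (mDC) 7 and 5 against 55 and 13, so neither could be compared between tumor and skin.

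All 10 genes are placed on GRCm38 in the GENCODE annotation. Ciita lies on chromosome 16 (10480059 to 10528418, plus strand). On chromosome 17 the order runs from H2-Oa (34092340 to 34095234) through H2-DMa (34119541 to 34139101), H2-DMb2 (34143307 to 34151555), H2-DMb1 (34153072 to 34160230), H2-Ob (34238903 to 34254414) and H2-Ab1 (34257689 to 34269419) to H2-Aa (34282744 to 34287823, the only one of them on the minus strand) and H2-Eb1 (34305867 to 34316674). Cd74 lies on another chromosome, on the plus strand.

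The promoter sequences are shown because CIITA acts on these genes through the boxes in front of them, and because H2-DMb2 and H2-Oa moved against H2-Aa and H2-Eb1 in the data below. Promoters from RefSeq (GRCm38.p6, 250 bases before to 50 after the start of transcription) were found for 7 of the 10 genes, and for 6 of them a stretch around the Y box, or ending at it, is printed 5′ to 3′ on the strand of the gene. The other, H2-DMa, has 2 entries, of which 1 held none of the letters searched. The other entry held ATTGG only at position -198 from the start, and TGATG at -142. Capitals mark the letters ATTGG (core of the Y box), AGCAAC (core of the X1 box), TGATG (core of the X2 box) and TGACGTCA (the cyclic AMP response element core).
H2-Aa (chr17:34287852-34287931, minus strand): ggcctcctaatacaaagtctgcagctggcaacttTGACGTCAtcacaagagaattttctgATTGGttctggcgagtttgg
H2-Eb1 (chr17:34305748-34305827, plus strand): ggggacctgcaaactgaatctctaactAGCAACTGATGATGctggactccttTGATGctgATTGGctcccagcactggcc
H2-Ob (chr17:34238788-34238867, plus strand): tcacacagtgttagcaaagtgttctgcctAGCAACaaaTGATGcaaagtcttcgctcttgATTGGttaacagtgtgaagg
H2-Oa (chr17:34092311-34092340, plus strand): cccattatctcagagaactgctctgATTGG
H2-DMb1 (chr17:34153105-34153134, plus strand): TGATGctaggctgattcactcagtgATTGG
H2-DMb2 (chr17:34145134-34145163, plus strand): TGATGctaggctaagtcacttagtgATTGG
In these 6 promoters the printed Y core stood between 43 and 90 bases before the start, and H2-Eb1 held another ATTGG nearer the start on the opposite strand. An X1 core stood 34, 31 and 33 bases ahead of it in H2-Oa, H2-Ob and H2-Eb1. A match is a description of letters and does not show that a factor binds there. Over 32851 mouse promoters searched on both strands, 37.4% held ATTGG, 14.8% AGCAAC, 39.3% TGATG and 1.79% TGACGTCA, while 0.505% held an X1 core followed by a Y core.

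Class II transcripts marked the APC gates, and levels are given by group because LCs were measured in control skins and mDCs in skin tumors alone. In control skins H2-Aa, the alpha chain of the I-A molecule, was at 90.6 ± 13.03 UMIs per 10,000 in type 1 conventional dendritic cells (cDC1), 82.96 ± 4.88 in LCs, 81.6 ± 2.22 in type 2 conventional dendritic cells (cDC2) and 60.5 ± 11.9 in macrophages (SD, n = 2 libraries for each value of this kind). The first 3 of these overlapped and macrophages lay below them. In skin tumors it was at 63.1 ± 1.17 in cDC2s, 54.8 ± 0.01515 in macrophages, 52.8 ± 0.990 in cDC1s and 33.7 ± 7.85 in mDCs, without overlap between neighbours. Monocyte-like cells ranged from 18.3 to 36.65 over the 4 libraries.

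In control skins Cd74 was at 166.6 ± 31.4 in cDC1s, 163.5 ± 2.32 in cDC2s and 160.6 ± 12.7 in LCs, which overlapped, and at 109.3 ± 24.8 in macrophages, whose range lay below. Skin tumors gave 113.5 ± 6.04 in cDC2s, 107.3 ± 0.6525 in cDC1s and 50.99 ± 12.8 in mDCs, with macrophages at 105.9 and 94.1. Ciita was highest in LCs among the gates of control skin, at 3.89 ± 0.0870, followed by 1.80 ± 0.0901 in cDC1s, 1.55 ± 0.05945 in cDC2s and 0.941 ± 0.165 in macrophages, with no overlap between neighbours. In skin tumors it was at 3.69 ± 0.662 in cDC2s, 2.62 ± 0.982 in cDC1s, 1.49 ± 0.403 in macrophages and 0.923 ± 0.683 in mDCs, where cDC2s overlapped with cDC1s and macrophages with mDCs.

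**Figure D1:**
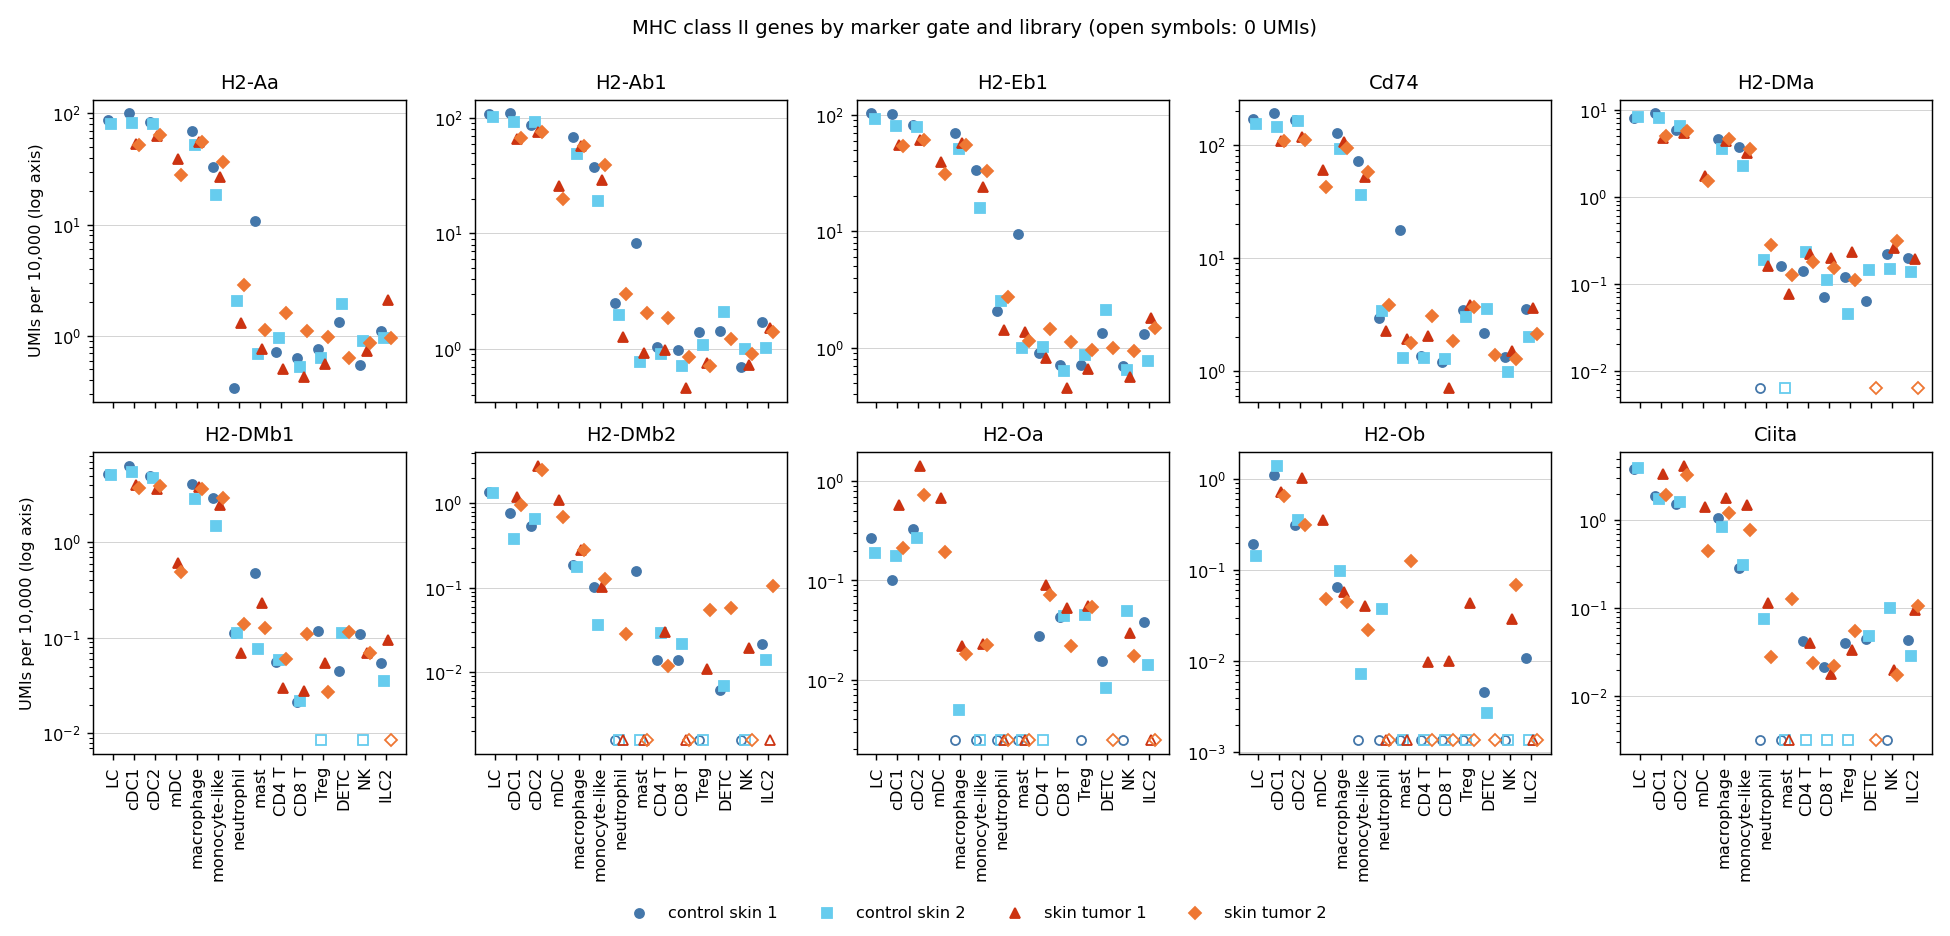
Level of each MHC class II gene (UMIs per 10,000, log axis) in each gate, with 1 point per library of at least 10 cells and control skins in blue and skin tumors in red and orange (open symbols at the bottom stand for 0 UMIs). H2-Aa, H2-Ab1, H2-Eb1 and Cd74 are high in LCs, dendritic cells and macrophages and far lower in lymphocytes, while H2-Oa, H2-Ob and H2-DMb2 are highest in dendritic cells and LCs.

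Among the accessory genes, H2-DMa and H2-DMb1 followed the order of H2-Aa in control skins. H2-DMa was at 8.49 ± 0.723 in cDC1s, 8.05 ± 0.1075 in LCs, 6.20 ± 0.439 in cDC2s and 4.05 ± 0.801 in macrophages. H2-DMb2, a beta chain of H2-DM, was at 1.35 ± 0.0379 in LCs, 0.600 ± 0.0758 in cDC2s, 0.578 ± 0.274 in cDC1s and 0.182 ± 0.00834 in macrophages. In skin tumors it was at 2.63 ± 0.238 in cDC2s, 1.07 ± 0.163 in cDC1s, 0.892 ± 0.293 in mDCs and 0.279 ± 0.00120 in macrophages. H2-Oa, the alpha chain of H2-O, was higher in cDC2s than in cDC1s in both libraries of each group, and H2-Ob, its beta chain, was higher in cDC1s than in cDC2s in control skins and overlapped between them in skin tumors. Macrophages of the control skins held 0 and 2 UMIs of H2-Oa in all.

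Differences between gates were tested within libraries with edgeR's quasi-likelihood test, Benjamini-Hochberg adjusted over all genes. A single fit held all gates, so its differences pool control skins and skin tumors and describe neither group alone. LCs entered from control skins and mDCs from skin tumors, while the cDC2s they were set against came from both groups. Against macrophages, cDC2s were higher in 4 of 10 genes and lower in none, where 11.9% of all genes differed. These 4 were H2-DMb2 (5.95-fold, adjusted p = 1.0e-08), H2-Oa (47.8-fold, adjusted p = 2.0e-13), H2-Ob (7.23-fold, adjusted p = 2.3e-07) and Ciita (2.03-fold, adjusted p = 0.00592). None of the chain genes nor Cd74 passed in this pair. In simulated data 14.3% of the calls for this pair were false.

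Within the dendritic cells, cDC1s were lower than cDC2s in H2-DMb2 (log2 difference -0.93 ± 0.29 SE, adjusted p = 0.0376) and H2-Oa (-1.38 ± 0.34, adjusted p = 0.00668), 2 of 10 against 7.84% of all genes. LCs were higher than cDC2s in Ciita (1.11 ± 0.33, adjusted p = 0.0113) and lower in H2-Ob (-1.48 ± 0.46, adjusted p = 0.0170), which is 2 of 10 where 20.1% of all genes differed, a share equal to the background. H2-DMb2 did not pass there (0.53 ± 0.36, adjusted p = 0.323), in a fit that also holds the cDC2s of the tumors. The mDCs, dendritic cells marked by Ccr7 and Fscn1, were lower than cDC2s in 4 of 10 genes against 15.6% of all genes. These were H2-Ab1 (-1.66 ± 0.42), H2-DMa (-1.83 ± 0.42), H2-DMb1 (-2.82 ± 0.42, adjusted p = 1.8e-06) and Ciita (-1.77 ± 0.39). H2-DMb1 was at 0.614 and 0.489 in the mDCs of the tumors and at 3.66 and 3.87 in their cDC2s, and H2-DMb2 was at 1.10 and 0.685 against 2.80 and 2.465, a difference that did not pass (-1.02 ± 0.39, adjusted p = 0.0655). Monocyte-like cells were lower than macrophages in H2-Eb1 (-1.13 ± 0.33, adjusted p = 0.0285) and H2-DMb2 (-1.47 ± 0.35, adjusted p = 0.00560), 2 of 10 against 5.86%.

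Between skin tumor and control skin, 6 of the 10 genes passed in cDC2s. Of these, 3 rose and 3 fell, where 4.94% of 7596 genes rose and 6.03% fell in cDC2s (11.0% in all). The invariant chain and the alpha and beta chains H2-Aa and H2-Eb1 fell to 0.6175 to 0.689 of their control level. H2-DMb2, H2-Oa and Ciita rose 2.12-fold to 3.89-fold. The median change of the 10 genes was -0.38 on the log2 scale, against 0.05 over all genes tested.

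Among the chains, H2-Aa was at 83.2 and 80.1 UMIs per 10,000 in the cDC2s of control skins 1 and 2 and at 62.25 and 63.9 in those of skin tumors 1 and 2. It fell by 0.54 ± 0.12 on the log2 scale (adjusted p = 0.0380). H2-Eb1, the gene of the I-E beta chain, was at 82.4 and 77.9 in control skins and at 61.3 and 60.7 in skin tumors. It fell by 0.56 ± 0.12 (adjusted p = 0.0322). The groups did not overlap for either gene. No class II protein was measured, so the RNA of H2-Eb1 does not show that an I-E molecule was present in either group. H2-Ab1, the beta chain of I-A, was at 87.7 and 91.8 against 75.2 and 75.5 and did not pass (log2 change -0.42 ± 0.12, adjusted p = 0.0654).

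Cd74, which encodes the invariant chain that occupies the groove before peptide does, was at 165.2 and 161.9 in the cDC2s of control skins and at 117.7 and 109.2 in those of skin tumors. Every tumor library was below every control library, and the gene fell by 0.70 ± 0.10 (adjusted p = 0.0136).

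Of the H2-DM genes, 1 of 3 passed in cDC2s. H2-DMb2 was at 0.546 and 0.653 in control skins and at 2.80 and 2.465 in skin tumors, with no overlap. It rose by 1.96 ± 0.22 on the log2 scale, 3.89-fold (adjusted p = 0.00700). H2-DMb1, the other beta chain gene, was at 4.97 and 4.75 against 3.66 and 3.87 and did not pass (-0.54 ± 0.18, adjusted p = 0.101). H2-DMa, the alpha chain, was at 5.89 and 6.51 against 5.38 and 5.67 (-0.33 ± 0.18, adjusted p = 0.256). The beta chain genes are close copies, and 20.4% of the 50-base windows in the last 500 bases of the H2-DMb1 transcript were also found in H2-DMb2, whereas 0 of those at the end of H2-DMb2 were found in H2-DMb1. How reads of the shared windows were divided is not stated, so the split between the pair is uncertain.

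Of the H2-O genes, H2-Oa was at 0.328 and 0.268 in the cDC2s of control skins and at 1.435 and 0.717 in those of skin tumors. It rose by 1.71 ± 0.36 (adjusted p = 0.0336), with no overlap and with skin tumor 1 at the higher end. H2-Ob was at 0.317 and 0.352 against 1.02 and 0.313, so that skin tumor 2 lay under both control skins, and it did not pass (0.88 ± 0.49, adjusted p = 0.277).

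Ciita was at 1.51 and 1.59 in the cDC2s of control skins and at 4.16 and 3.22 in those of skin tumors. It rose by 1.08 ± 0.20, 2.12-fold (adjusted p = 0.0254). The transactivator thus rose in the gate in which H2-Aa, H2-Eb1 and Cd74 fell. With DESeq2 in place of edgeR, H2-DMb2, H2-Oa and Ciita were called, while H2-Aa (adjusted p = 0.198), H2-Eb1 (0.169) and Cd74 (0.0582) were not. Without control skin 1, or without control skin 2, H2-DMb2 was the only one of these 6 cDC2 calls that remained.

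**Figure D2:**
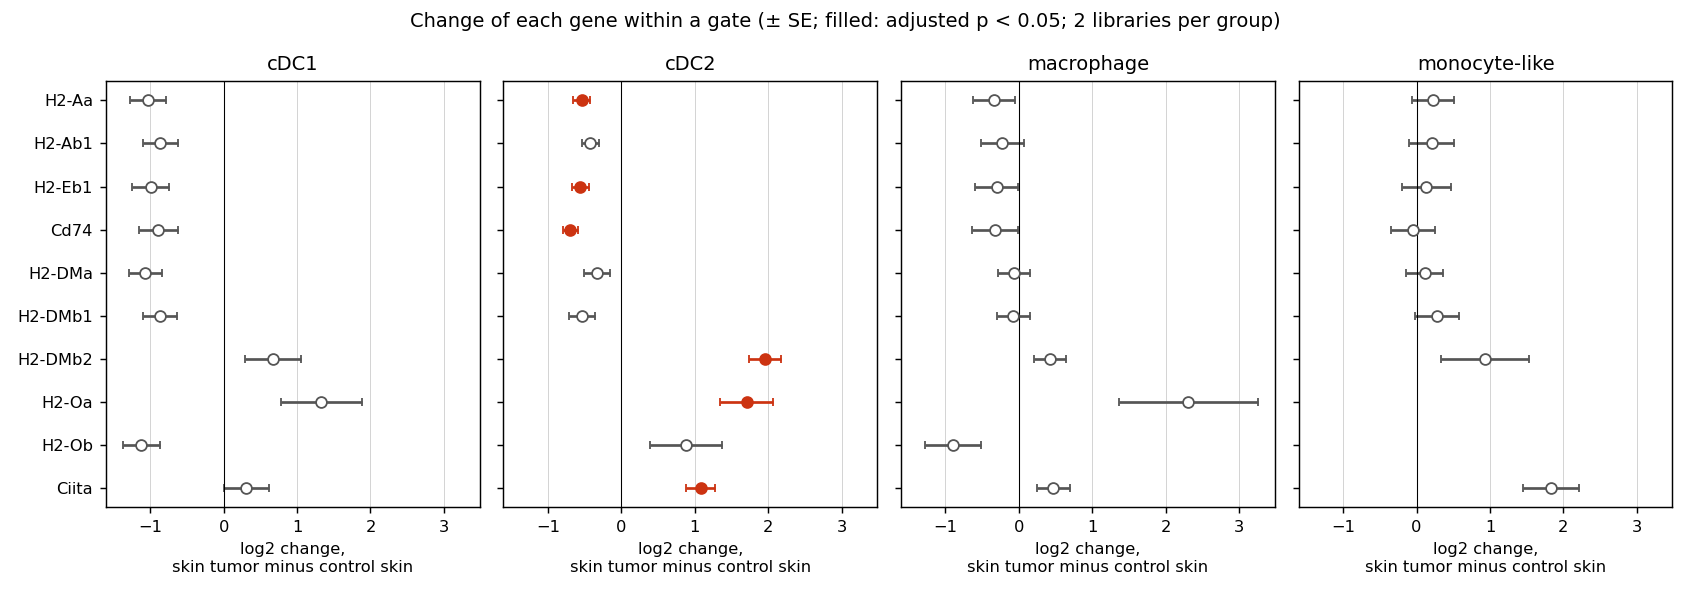
Change of each MHC class II gene from control skin to skin tumor (log2, point with its standard error) in cDC1s, cDC2s, macrophages and monocyte-like cells, with filled points for an adjusted p under 0.05. Of these panels only the cDC2 panel holds filled points, with H2-DMb2, H2-Oa and Ciita to the right of 0 and H2-Aa, H2-Eb1 and Cd74 to the left.

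The share of cDC2s with at least 1 UMI moved likewise for H2-DMb2. At full depth it stood at 40.5% and 44.8% in control skins against 77.3% and 62.2% in skin tumors, and with each cell thinned to 1000 UMIs it was 2.38% and 7.46% against 15.3% and 15.6%. The 95% Clopper-Pearson intervals of the thinned shares were 0.0603 to 12.6% and 2.47 to 16.6% in control skins and 10.4 to 21.5% and 6.49 to 29.5% in skin tumors, so they overlapped. In CD8 T cells, which should lack the gene, the full-depth share was 0 to 2.50% at a median of 9846 to 13407 UMIs, compared with 16738 to 20596 UMIs in cDC2s. Intervals cover counting error only.

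The make-up of the cDC2 gate differed between the groups. Mrc1, a mannose receptor of macrophages and of some dermal dendritic cells, was at 5.495 and 6.13 UMIs per 10,000 in the cDC2s of control skins and at 0.983 and 1.20 in those of skin tumors. Adgre1, which encodes F4/80, was at 1.58 and 1.41 against 0.354 and 0.248. Summed over the 8 macrophage markers, the level was 9.32 and 9.77 against 4.36 and 4.33, with the complement gene C1qa at 0.244 or less in every library. The summed cDC2 markers were at 21.25 and 22.6 against 16.3 and 17.1, but single markers moved in both directions. Cd209a was at 9.31 and 9.01 against 4.59 and 5.36, and Mgl2 at 8.14 and 9.51 against 4.06 and 6.30. Kmo was instead at 0.524 and 0.519 against 1.94 and 1.15. Flt3 was at 0.776 and 0.637 against 1.29 and 0.926, and Zbtb46 at 1.62 and 1.56 against 2.24 and 1.79. The summed cDC1 markers were at 1.88 and 1.65 against 5.61 and 3.70. Plac8, a marker used for monocyte-like cells, was at 0.371 and 0.678 against 10.4 and 5.41. Fn1, another marker of that list, went the other way, at 1.06 and 1.48 against 0.0824 and 0.952.

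Cells of the cDC2 gate were therefore divided by Mrc1, a split chosen after these values were seen. Cells with at least 2 Mrc1 UMIs made up 85.7% and 80.6% of the gate in control skins (36 and 54 cells) and 22.7% and 31.1% in skin tumors (40 and 14 cells). Among these, H2-DMb2 was at 0.375 and 0.520 in control skins and at 2.46 and 2.72 in skin tumors, and it rose by 2.34 ± 0.30 (adjusted p = 0.0105). Ciita was at 1.44 and 1.68 against 4.615 and 3.425 and rose by 1.19 ± 0.24 (adjusted p = 0.0352). Cd74 was at 168.0 and 167.8 against 134.0 and 114.2 and fell by 0.61 ± 0.10 (adjusted p = 0.0218). These cells are part of those in which the 6 genes were called, so passing again is not an independent test. The share of all genes called here, 5.01%, is over genes not chosen in that way and is not a like measure. Of the 6 changes, 3 passed. H2-Aa (-0.46, adjusted p = 0.0614), H2-Eb1 (-0.44, adjusted p = 0.0644) and H2-Oa (1.36, adjusted p = 0.0951) did not.

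In cDC2s with under 2 Mrc1 UMIs no class II gene passed, with 0.251% of 4777 genes called. Control skin gave only 6 and 13 such cells, fewer than the 10 set as a minimum in 1 library, against 136 and 31 in skin tumors. H2-DMb2 was here at 1.73 and 1.34 in control skins and at 2.91 and 2.34 in skin tumors (0.74 ± 0.34, adjusted p = 0.428), and Ciita was at 1.99 and 1.13 against 4.015 and 3.12 (1.18 ± 0.38, adjusted p = 0.284). Cd74 was at 145.5 and 131.6 against 112.7 and 106.7 (-0.39 ± 0.15, adjusted p = 0.339). The groups did not overlap for any of these 3 genes, but the share of all genes without overlap was not counted. In control skins the values of H2-DMb2, from 20 and 26 UMIs, were above those of the cells rich in Mrc1.

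**Figure D3:**
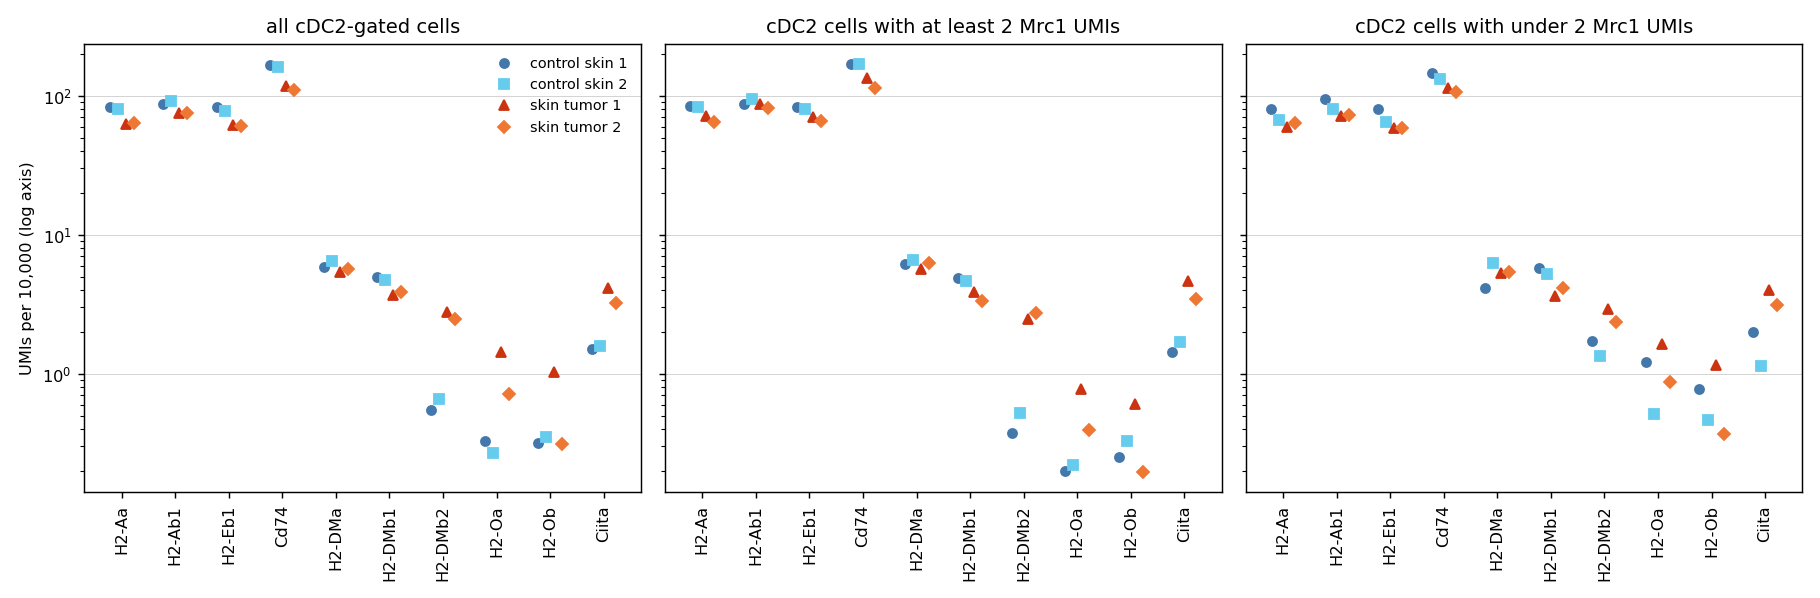
Level of each class II gene (UMIs per 10,000, log axis) in all cDC2s and in those with at least 2 or under 2 Mrc1 UMIs, 1 point per library. H2-DMb2, at 0.375 and 0.520 in control cells rich in Mrc1 and at 2.46 and 2.72 in the corresponding tumor cells, differs more there than among cells poor in Mrc1.

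In cDC1s, the dendritic cells that cross-present antigen, no class II gene passed, where 2.04% of 7007 genes were called. The levels that follow are therefore descriptions, in a gate where 1389 of 7007 genes had an unadjusted p under 0.05 in edgeR. The share of all genes without overlap between the groups was not counted. H2-Aa was at 99.8 and 81.4 in control skins and at 53.5 and 52.1 in skin tumors (-1.03 ± 0.24, adjusted p = 0.0819), and Cd74 at 188.8 and 144.4 against 107.8 and 106.8 (-0.89 ± 0.26, adjusted p = 0.131). H2-DMa had the largest decrease of the peptide editor, from 9.005 and 7.98 to 4.71 and 4.96 (-1.07 ± 0.22, adjusted p = 0.0621). H2-Ob was at 1.11 and 1.41 against 0.714 and 0.657 (-1.12 ± 0.26, adjusted p = 0.0776). H2-DMb2 was at 0.771 and 0.384 against 1.18 and 0.953, and Ciita at 1.86 and 1.73 against 3.31 and 1.92, neither of which passed. The median change of the 10 genes was -0.88, against -0.01 over all genes. DESeq2 on the same sums called 5 of these genes lower (H2-Aa, H2-Ab1, H2-Eb1, Cd74 and H2-DMa). The share of all genes that DESeq2 called is not given, and the 2.04% of edgeR is not a like measure, so this count has no background beside it.

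The cDC1 markers of the gate summed to between 24.7 and 25.7 in all 4 libraries, but single markers moved in opposite directions. Cadm1 was at 7.56 and 8.77 in control skins and at 4.93 and 4.09 in skin tumors. Wdfy4 was at 5.53 and 5.225 against 7.46 and 6.31. Irf8 and Clec9a were also higher in both skin tumors, and Xcr1 overlapped between the groups. Markers of other cells differed between the groups too. Cd207, which encodes langerin and is shared by LCs and some dermal cDC1s, was at 7.965 and 4.89 in the cDC1s of control skins and at 0.00978 and 0 in those of skin tumors, and Epcam, a marker of LCs, at 1.74 and 0.966 against 0.0228 and 0. The summed macrophage markers were at 2.08 and 5.06 against 10.02 and 5.91. With cells of at least 5 Cd207 UMIs left out, 15 and 20 of the control cells and all 131 and 20 tumor cells remained. H2-Aa was then at 75.7 and 74.7 against 53.5 and 52.1 (-0.63 ± 0.22, adjusted p = 0.269), and H2-DMa at 5.99 and 5.27 against 4.71 and 4.96 (-0.34 ± 0.24, adjusted p = 0.579). With cells of at least 2 C1qa UMIs left out instead, H2-Aa was at 102.3 and 81.95 against 53.2 and 53.4 (-1.03 ± 0.29, adjusted p = 0.0960), and H2-DMa at 9.32 and 8.16 against 4.535 and 4.96 (-1.12 ± 0.25, adjusted p = 0.0531). Both splits were chosen after the values were seen.

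In macrophages no class II gene passed. H2-Aa was at 68.9 and 52.1 in control skins and at 54.8 and 54.8 in skin tumors, with the tumors inside the range of the controls (-0.33 ± 0.28, adjusted p = 0.672). Cd74 was at 126.8 and 91.7 against 105.9 and 94.1, and H2-DMa at 4.61 and 3.48 against 4.30 and 4.55. Ciita was at 1.06 and 0.825 in control skins and at 1.77 and 1.20 in skin tumors (0.47 ± 0.22, adjusted p = 0.430), and H2-DMb2 at 0.188 and 0.176 against 0.280 and 0.279 (0.43 ± 0.22, adjusted p = 0.462). The groups did not overlap for Ciita and H2-DMb2, but the share of all genes without overlap was not counted. In all, 0 of 10 genes were called where 0.821% of 12054 genes were. At an unadjusted p under 0.05 there was 1 of the 10 genes, against 1679 of 12054 over all genes. It was H2-Oa, which had 0 and 2 UMIs in the control skins.

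Monocyte-like cells carried the lowest level among these myeloid gates in control skin 2. H2-Aa was at 33.2 and 18.3 in control skins and at 26.6 and 36.65 in skin tumors (0.22 ± 0.29, adjusted p = 0.850), and the groups overlapped. Ciita was at 0.282 and 0.306 against 1.49 and 0.769, without overlap (1.83 ± 0.38, 3.56-fold), but did not pass (adjusted p = 0.132), while DESeq2 called it (adjusted p = 0.0148). No class II gene of the 8 tested passed, where 0.289% of all genes were called.

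Whether a change differed from that in macrophages was tested directly, by the interaction of gate and group in a single fit. None of 100 combinations of gene and gate passed in edgeR. The share of all genes that passed was 0.649% in cDC1s, 1.28% in cDC2s, 0.0752% in monocyte-like cells, 2.56% in CD4 T cells and 2.62% in CD8 T cells. It was 0.470% in regulatory T cells, 0.310% in NK cells, 1.76% in ILC2s, 0.545% in mast cells and 0.0376% in neutrophils. Among the 100 combinations the lowest adjusted p was 0.115, for H2-DMb2 in cDC2s, with a change 1.42 ± 0.44 higher than in macrophages. The changes in cDC2s are thus not shown to be particular to cDC2s.

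The spread of class II levels among the cells of a gate was described with the sum of H2-Aa, H2-Ab1 and H2-Eb1 in each cell. In macrophages the median cell was at 148.3 and 135.1 UMIs per 10,000 in control skins and at 165.8 and 162.7 in skin tumors. The 10th percentile stood at 7.395 and 6.24 in control skins against 40.9 and 59.8 in skin tumors, and the 90th was 343 and 297.9 against 267.5 and 254.4. Macrophages with under 10 UMIs per 10,000 were 13.5% and 12.02% of the cells in control skins against 2.73% and 1.11% in skin tumors. The macrophage gate of the tumors was thus spread over a narrower range, with medians above those of both control skins, values given without a test. These values rest on 89 and 258 control cells against 1907 and 631 tumor cells. The macrophage gene C1qa differed too. Among the 25% of cells with the lowest sum it was at 4.145 and 14.33 (controls) against 25.65 and 18.3 (tumors). Among the 25% with the highest sum it was at 18.01 and 15.83 against 36.96 and 26.34. The part of the gate's make-up in the narrower range was not tested.

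Among monocyte-like cells, 72% and 64.3% were under 10 in control skins against 38.8% and 23.8% in skin tumors, while 28% and 18.75% against 32.2% and 44.8% were over 100. Their median cell was at 2.83 and 3.45 in control skins and at 31.9 and 79.6 in skin tumors, values given without a test. LCs had medians of 291 and 268.7, and cDC2s 243.5 and 235.7 against 193.9 and 203.4.

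**Figure D4:**
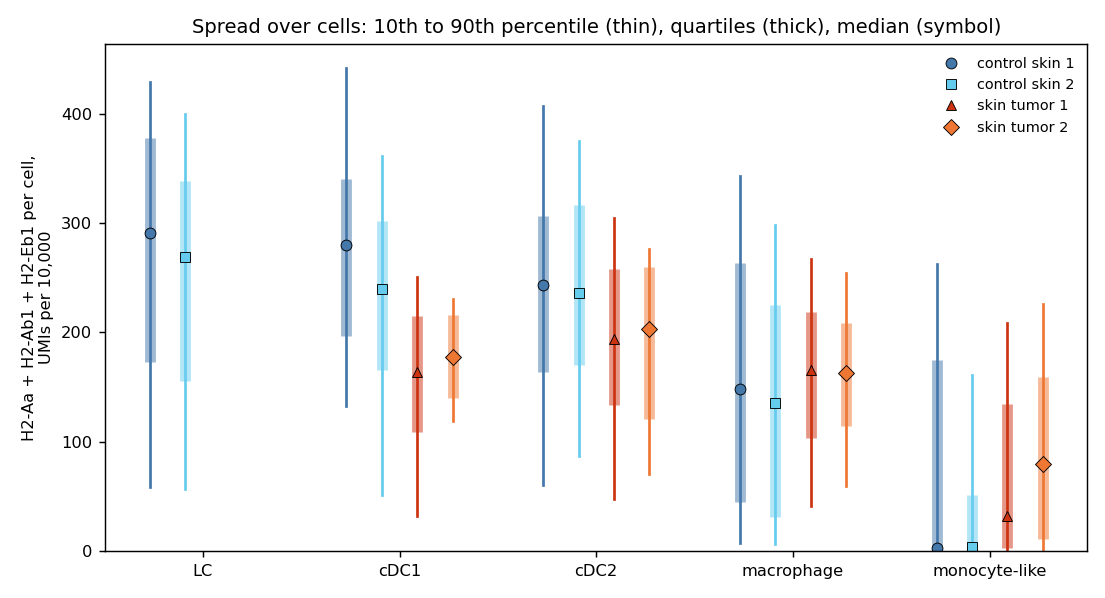
Sum of H2-Aa, H2-Ab1 and H2-Eb1 per cell (UMIs per 10,000) in LCs, cDC1s, cDC2s, macrophages and monocyte-like cells of each library, with the median as a symbol, the 25th to 75th percentiles as a thick bar and the 10th to 90th as a thin line. In macrophages the 10th percentile lies at 7.395 and 6.24 in control skins and at 40.9 and 59.8 in skin tumors, while the medians lie between 135.1 and 165.8.

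As a description, the 25% of macrophages with the highest sum in each library were set beside the 25% with the lowest. The highest cells exceeded the lowest 19.3-fold and 18.1-fold in H2-Aa in control skins against 4.73-fold and 3.325-fold in skin tumors. Genes that were not part of the sum went with it. Cd74 differed 18.8-fold and 13.1-fold in control skins against 4.11-fold and 2.535-fold in skin tumors, and H2-DMb1 15.95-fold and 8.68-fold against 3.10-fold and 2.41-fold. Ciita differed 1.92-fold and 11.8-fold against 1.49-fold and 1.74-fold. Spp1, which encodes osteopontin, was at 7.83 and 7.53 in the lowest cells and at 0.246 and 0.2175 in the highest in control skins, and at 0.815 and 2.545 against 0.526 and 1.65 in skin tumors. Mrc1 was higher in the lowest cells in all 4 libraries, at 13.6, 12.01, 10.1 and 8.06 against 5.65, 9.92, 6.16 and 6.725.

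Lymphocytes held class II transcripts at a low level. H2-Aa lay between 0.427 and 1.62 UMIs per 10,000 in CD4 and CD8 T cells, and over H2-Aa, H2-Ab1, H2-Eb1 and Cd74 the median level of CD8 T cells was 1.72% and 1.63% of that of all cells in control skins against 1.04% and 3.01% in skin tumors. Genes of macrophages (C1qa, C1qb, C1qc, Ms4a7, Apoe and Lyz2) had medians of 3.35% and 0.382% against 1.10% and 2.78%. In all, 9 of the 10 class II genes were lower in CD8 T cells than in macrophages, and 44.7% of all genes differed. H2-Oa was the exception, 2.465-fold higher in CD8 T cells (adjusted p = 0.0340), at 0.0425 and 0.0439 in control skins and at 0.0534 and 0.0219 in skin tumors, from 1 to 21 UMIs a library. These were 37.4% to 55.85% of its level in all cells.

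Regulatory T cells stood at 3.46 and 3.035 for Cd74 in control skins and at 3.80 and 3.68 in skin tumors. These were 4.34% to 5.87% of the level in all cells, whereas their H2-Aa was at 1.36% to 2.70%. The macrophage genes had medians there of 2.91% and 3.24% against 1.17% and 3.29%, with single genes up to 6.26%. Cd74 in ILC2s ranged from 2.02 to 3.62 over the libraries, so these gates overlapped. In CD4 T cells Cd74 was at 1.355 and 1.305 in control skins and at 2.03 and 3.09 in skin tumors (0.88 ± 0.27, adjusted p = 0.0804), and the summed macrophage markers of these cells were at 0.140 and 0.696 against 0.814 and 1.45. The part of those in the result was not tested.

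Mast cells of control skin 1 stood apart, with H2-Aa at 10.8 against 0.691 to 1.14 in the other 3 libraries. There 11.8% of 17 cells had a sum of the chains over 100. No class II gene passed in CD4 T cells (8.46% of all genes called), CD8 T cells (10.1%), regulatory T cells (2.73%), NK cells (0.550%), ILC2s (5.48%), mast cells (4.90%) or neutrophils (0.00%). Only 4 or 5 of the 10 genes could be tested in each of these gates, and over all gates 20 of 70 tests had an unadjusted p under 0.05, of which 6 were called. Among all genes tested, those under this limit ran from 211 of 3346 in neutrophils to 2254 of 7596 in cDC2s.

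Over all immune cells, the summed level of H2-Aa, H2-Ab1 and H2-Eb1 was 121.6 and 119.4 per 10,000 in control skins against 127.9 and 111.3 in skin tumors. The groups overlapped, and the gates that held these UMIs differed, without a test. LCs gave 48.6% and 35.9% of these UMIs in control skins against 0.0415% and 0.649% in skin tumors. Macrophages gave 6.93% and 12.35% in control skins against 75.7% and 58.75% in skin tumors, as 3.08% and 8.62% against 41.9% and 32.3% of cells. The cDC2s gave 5.03% and 6.02% against 7.83% and 4.25%. Mixed cells, left out of every gate, gave 32.2% and 37.4% against 2.815% and 25%. In the mixed cells of control skins the summed LC markers were at 27.6 and 21.6 per 10,000 and the CD3 genes at 13.2 and 12.6, both pooled over these cells.

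**Figure D5:**
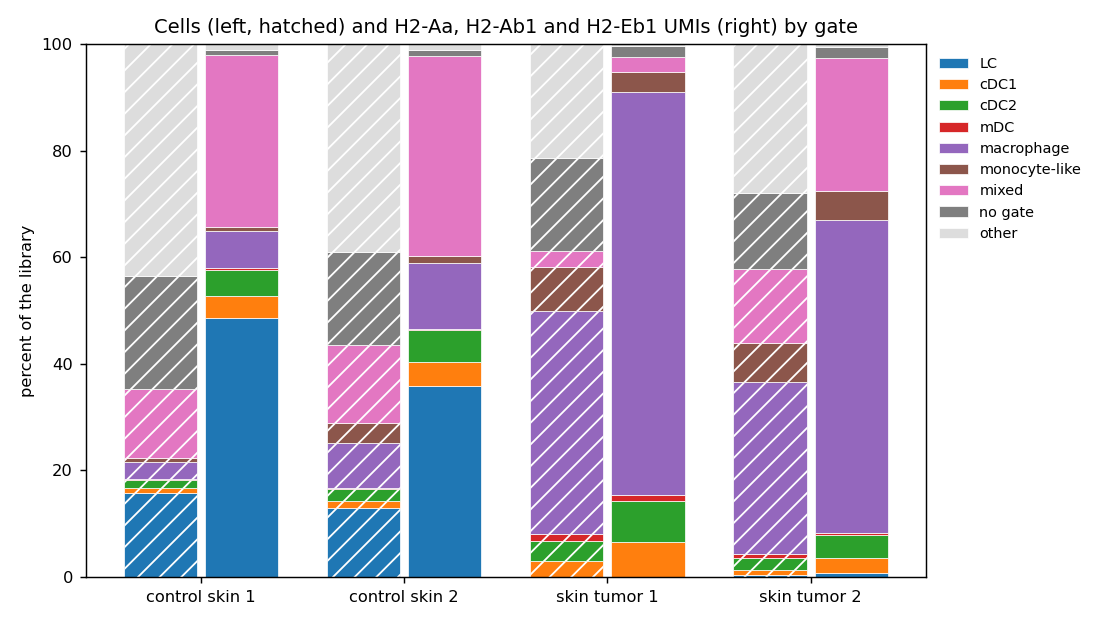
Share of the cells (hatched bars) and of the H2-Aa, H2-Ab1 and H2-Eb1 UMIs (plain bars) of each library that each gate held, in percent of the library. LCs and mixed cells make up most of the UMIs in control skins and macrophages, at 75.7% and 58.75%, in skin tumors.

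Other genes of the class II pathway were read from a list of 29 found in the files. In cDC2s 4 of 23 tested rose and 1 fell, where 4.94% and 6.03% of all genes did. Irf1, which acts downstream of interferon on Ciita, was at 0.426 and 0.352 in the cDC2s of control skins and at 1.34 and 1.735 in those of skin tumors, and it rose by 1.81 ± 0.27 (adjusted p = 0.0146). Irf8, a factor of the dendritic lineage and here a cDC1 gate marker, was at 0.229 and 0.352 against 1.35 and 1.98 (2.32 ± 0.34, adjusted p = 0.0138). Cst3, the cathepsin inhibitor cystatin C, was at 16.4 and 18.4 against 51.6 and 39.7 (1.22 ± 0.16, adjusted p = 0.0110), and Sppl2a, the protease that clears the last membrane stub of the invariant chain, at 0.907 and 0.787 against 1.78 and 2.165 (1.05 ± 0.23, adjusted p = 0.0374). Ctsb, a lysosomal cathepsin, fell by 0.93 ± 0.19 (adjusted p = 0.0310), from 5.53 and 4.49 to 2.95 and 2.93. The levels of Irf8, Cst3 and Ctsb differ between cDC1s, cDC2s and macrophages. The make-up of the gate described above also differed between the groups, and its part in these changes was not tested. Irf8 passed as well in CD8 T cells (2.90 ± 0.45, adjusted p = 0.00427) and ILC2s (1.79 ± 0.45, adjusted p = 0.0343). Irf1 passed as well in ILC2s (1.91 ± 0.40, adjusted p = 0.0137), and neither gene passed in macrophages or monocyte-like cells.

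In T cells, 7 of 21 genes of the list rose in CD4 T cells, where 361 of 7439 genes did, and 5 of 19 in CD8 T cells, where 352 of 7786 did. Lag3, a class II receptor that restrains T cells, was at 0.0283 and 0.0219 in the CD8 T cells of control skins and at 0.465 and 0.197 in those of skin tumors (3.60 ± 0.64, adjusted p = 0.00738), and in CD4 T cells it had 0 UMIs in both control skins and was at 0.526 and 0.2503 in skin tumors. Cd80, a costimulatory ligand, was at 0.0496 and 0.132 against 0.600 and 0.612 in CD8 T cells (2.87 ± 0.46, adjusted p = 0.00457). Ctsb was at 0.531 and 0.899 against 2.66 and 2.98 in CD4 T cells (1.98 ± 0.27, adjusted p = 0.00289), beside the macrophage markers of that gate given above, whose part in the result was not tested. Ctsd rose in CD4 T cells (1.17 ± 0.25) and mast cells (1.78 ± 0.36), while no gene of the list passed in monocyte-like cells or neutrophils.

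The genes whose levels went most closely with the chains were sought over 57 profiles of gate and library, among 3530 genes with a mean of at least 0.5 UMIs per 10,000. Profiles of the same library or gate share cells and depth, so the correlations are descriptions. Spearman's rho with the mean log2 level of H2-Aa, H2-Ab1 and H2-Eb1 was 0.832 for Prcp, 0.808 for Irf5, 0.807 for Spi1 (which encodes PU.1), 0.806 for Gpr137b, 0.799 for Wfdc17, 0.797 for Cd300a, 0.789 for Cd68, 0.787 for Mpeg1, 0.787 for Lyz2 and 0.781 for Cxcl16. Cd68 was a macrophage marker of the gates. Among the members, rho was 0.913 for Cd74, 0.871 for H2-DMb1, 0.822 for Ciita, 0.784 for H2-DMa, 0.760 for H2-DMb2, 0.686 for H2-Ob and 0.355 for H2-Oa.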

How the data were processed

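The authors deposited a matrix of raw UMI counts for every library (genes by called cells, mm10), neither normalized nor pooled. Cell Ranger is given as 7.1.0 in the labels and as 7.0.1 in the matrix header. The handling of intronic reads is not given in the sources used here. Cells with at least 1000 UMIs, at least 100 genes, at most 15% mitochondrial UMIs and a complexity of at least 0.8 were kept, and doublets were removed by an own score against simulated doublets, at 1% per 1000 cells. A gate required at least 3 markers, with fewer where a type has few, and these thresholds were set after marker values were seen. Counts were summed per gate and library and tested with edgeR 4.0.16 (TMM, filterByExpr, quasi-likelihood test), Benjamini-Hochberg adjusted over all genes of the fit, with a threshold of 0.05. Fold changes are those of the fit. Levels are pooled UMIs per 10,000, without pseudocount, and correlations used 0.1. In simulated data with 200 genes changed by 2 on the log2 scale, 69.5% (ILC2) to 96% (NK) were called. Of the calls between tumor and control, 1.69% (cDC1) to 6.1% (macrophage) were false. For cDC2s against macrophages 95.5% were called and 14.3% of the calls were false, above the share that the threshold sets. Smaller changes were not simulated, and the changed genes were drawn only from those above a minimum mean count. The shares called therefore do not cover members with few UMIs. DESeq2 1.42.0 and the settings of the closing section were alternatives. Members and lists were chosen with earlier results of these data known. All 10 members were named in every tested gate, and the pathway genes called in the most gates. A gene of the pathway list, counted in its totals, and part of the genotype of the tumor model are not reported here.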

Additional observations from a re-analysis of the deposited data

How the results depend on the processing

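The counts of class II genes called between skin tumor and control skin, 3 higher and 3 lower over all gates, depended on the setting. Genes called higher were 5 without the filter on low counts and 0 without cDC2s of at least 2 Mrc1 UMIs. Genes called lower were 5 with DESeq2, all in cDC1s and none of the 3 in cDC2s, 12 without the filter, 0 with cells thinned to 1000 UMIs, 5 over all called cells, 0 without the cDC2s of at least 2 Mrc1 UMIs and 1 without those of under 2. With each library left out in turn the count of genes called higher ranged from 1 to 5 and that of genes called lower from 0 to 8. The difference from macrophages was called for 1 gene without the filter (H2-Aa in mast cells) and for 0 otherwise. Between paired gates 18 to 31 of 70 combinations passed, against 24. The other settings for the counts stayed within 1.5 times. Apart from the splits by Mrc1, shares of all genes called under these settings are not given, so the counts have no background beside them.

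H2-DMb2 in cDC2s passed in 11 of 11 planned settings (log2 change 1.69 to 2.09, adjusted p from 8.9e-11 to 0.0414) and Ciita in 10 of 12, while Cd74 and H2-Eb1 passed in 8 of 12, H2-Aa in 7 of 12 and H2-Oa in 7 of 11 (1.16 to 2.02, adjusted p up to 0.141). Without skin tumor replicate 1 the direction turned for Ciita in cDC1s (-0.17, adjusted p = 0.845, against 0.61 at the highest with another library left out) and for H2-Ob in cDC2s (-0.22, adjusted p = 0.780, against 1.35). The cause was not tested. The replicate numbers did not pair the samples, with correlations of deviations from -0.0414 to 0.025 over 11 gates, and with the number as a replicate block 3 genes were called higher and 4 lower. Splits by Mrc1, Cd207 and C1qa were chosen after the data were seen. Depth limits H2-Oa and H2-Ob outside dendritic cells, where libraries held few UMIs of either, and 20 to 45 cells in several dendritic cell sums limit the rest.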
